A study of Mus musculus with 8 samples.

Results

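The comparison described here set the liver transcriptome of neonatal mice given triclosan (TCS), an antimicrobial compound of consumer products, against that of littermates given vehicle, in mice whose Atf4 gene was floxed but intact (hUGT1/Atf4F/F). It rests on 4 of the 8 RNA-seq libraries of the series and on all 13633 of the 24411 genes in the count table that passed a filter on low counts. The tested libraries came from hUGT1/Atf4F/F mice given TCS at 50 mg/kg by oral gavage on 4 consecutive days (n = 2), and the controls from hUGT1/Atf4F/F mice given vehicle on the same days (n = 2). Each library held the pooled liver RNA of 2 mice, so that a group stood for 4 mice. The other 4 libraries came from hUGT1/Atf4ΔHep mice, in which a Cre recombinase under the albumin promoter deletes Atf4 in hepatocytes, with the same TCS (n = 2) and vehicle (n = 2) treatments. Every mouse of both genotypes carried the human UGT1 locus in place of the mouse Ugt1 locus, and the table holds mouse genes only. The study's results give an age of 10 days at the first dose, whereas its RNA-sequencing methods give 14 days.

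The hepatocyte meets foreign compounds and fatty acids with a set of sensor proteins. PPARα is a fatty acid receptor that turns on peroxisomal and mitochondrial fatty acid oxidation, CAR and PXR turn on drug-metabolising enzymes, and NRF2 drives the antioxidant and glutathione genes. The neonatal liver lives on milk fat, still expresses some fetal genes, and is already the source of most plasma proteins, including complement and clotting factors. Expression is given below as CPM, the count scaled to a common library size, after TMM normalization. Differences are log2 fold changes of TCS over vehicle with their standard errors (SE) from edgeR's quasi-likelihood test, and a gene is said to have risen or fallen where its Benjamini-Hochberg adjusted p over all genes tested was under 0.05. CPM takes no account of gene length, so levels are compared between groups and not between genes.

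The 8 libraries held 11624143 to 25573210 counts. Atf4 was at 58.6 and 59.8 CPM in the TCS libraries and at 59.5 and 62.8 CPM in the vehicle libraries of hUGT1/Atf4F/F mice, above the 17.4 to 19.7 CPM of the hUGT1/Atf4ΔHep libraries. Albumin (Alb) made up 115464 and 100893 CPM after TCS, against 119717 and 124268 CPM after vehicle, and 9 of 10 hepatocyte markers passed the filter, with 2 above 0 and a median log2 fold change of −0.16. The sex makeup of the pools differed between the treatments. The summed level of 4 Y-linked genes was 92.9 and 73.8 CPM in the TCS libraries, against 175 and 179 CPM in the vehicle libraries, and Xist, the transcript of the inactive X chromosome, was at 718 and 758 CPM against 23.2 and 1.05 CPM. Within hUGT1/Atf4F/F mice, treatment and sex makeup therefore cannot be told apart. In the hUGT1/Atf4ΔHep libraries each treatment had 1 library with a high and 1 with a low Y-linked sum (171 and 90.6 CPM after TCS, 80.7 and 163 CPM after vehicle). Markers of other cell types differed between the treatments with 0 calls in the lists given here. The summed level of 8 neutrophil markers was 17.6 and 18 CPM after TCS, against 30.1 and 33.4 CPM after vehicle, with 0 of 8 above 0 and 0 past the test. All 10 endothelial markers had values below 0 (median −0.20), with sums of 713 and 668 CPM after TCS against 732 and 891 CPM after vehicle. Of 7 T and NK cell markers 1 was above 0 (median −0.70), with sums of 4.83 and 5.03 CPM after TCS against 6.49 and 7.02 CPM after vehicle. Pancreatic acinar genes went the other way, all 12 tested being above 0 (median 0.72, and 3.52 in hUGT1/Atf4ΔHep livers), with sums of 125 and 82.5 CPM after TCS against 47.7 and 106 CPM after vehicle, which overlap. The part of these cell types in the results was not tested. In bulk liver RNA, fewer cells of a type and less RNA per cell cannot be told apart.

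Between the TCS and vehicle libraries, which also differed in sex makeup, 76 genes were called, and almost all of them were higher after TCS. In a fit that also held the Y-linked sum of each library as a term, 16 of the higher and 1 of the lower genes stayed called. Higher levels were called for 70 genes, 0.513% of those tested, and lower levels for 6 genes, 0.044%. The median log2 fold change of all genes was −0.0036, with 49.2% above 0, so that the table as a whole was centred. The imbalance was smaller at weaker evidence, since at an unadjusted p under 0.05 there were 781 higher genes (5.73%) and 546 lower genes (4%), but at an unadjusted p under 0.001 there were 107 higher and 14 lower genes. The 70 genes that rose together took 3.75% and 4.28% of the counts in the TCS libraries, against 2.30% and 2.23% in the vehicle libraries. The 6 genes that fell were of moderate level and together held 567 and 501 CPM after TCS, against 769 and 801 CPM after vehicle. The TCS and vehicle libraries did not overlap in any of the 76 genes, a separation that the test itself selects for, and of all genes tested 19.7% were higher and 19% lower without overlap. The counts moved with single libraries. Without TCS replicate 1, 148 genes were higher and 17 lower, without TCS replicate 2, 41 and 3, without vehicle replicate 1, 31 and 2, and without vehicle replicate 2, 27 and 8, while leaving out 1 of the 4 hUGT1/Atf4ΔHep libraries gave 47 to 53 higher and 2 or 3 lower genes. With 2 pools a group, the p-values measure the spread between pools and not between single mice.

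**Figure D1:**
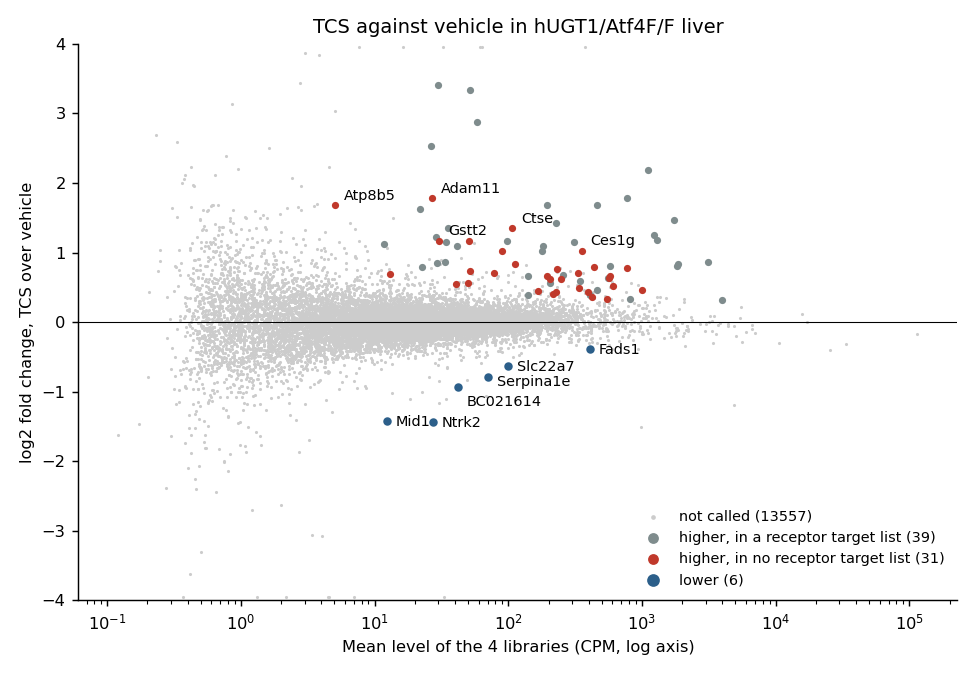
Each point is 1 of the 13633 genes tested, with the mean level of the 4 hUGT1/Atf4F/F libraries in CPM on the horizontal log axis and the log2 fold change of TCS over vehicle on the vertical axis. Red and dark grey points are the 31 and 39 genes that rose outside and inside the receptor target lists, blue points the 6 that fell, light points genes not called, and 13 genes beyond a log2 fold change of 4 in either direction are drawn at the edge.

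The 6 genes that fell encode a neurotrophin receptor, a ubiquitin ligase, an anion transporter, a protease inhibitor, a fatty acid desaturase and a protein named only by its cDNA. None of the 6 is in a target list of PPARα, CAR, PXR, NRF2 or AhR. They lie on 5 chromosomes as far as their symbols matched GENCODE M21 on GRCm38, which held 5 of the 6.

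Ntrk2 encodes TrkB, the receptor of brain-derived neurotrophic factor, and lies on chromosome 13 from 58806569 to 59133970. It was at 16.1 and 13.4 CPM after TCS, against 36.6 and 42.9 CPM after vehicle. Both vehicle libraries were well above both TCS libraries, and the libraries of each treatment were close to each other. The log2 fold change was −1.43 (SE 0.12, edgeR adjusted p = 0.00126), the largest fall among the 6 genes. Its call stood in all fits that left out 1 library and in a fit that also held the Y-linked sum of each library as a term (−1.26, adjusted p = 0.0423).

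BC021614, a gene known by its cDNA sequence, was at 31.8 and 26.0 CPM after TCS, against 53.9 and 55.9 CPM after vehicle. The vehicle libraries were close to each other and the TCS libraries lay below them. Its log2 fold change was −0.93 (SE 0.10, edgeR adjusted p = 0.0040). The call stood without each library in turn, the adjusted p reaching 0.0480 without vehicle replicate 2, and ended with the Y-linked term (−0.83, adjusted p = 0.198) and in the fit of the 4 hUGT1/Atf4F/F libraries alone (−0.93, adjusted p = 0.0554).

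Mid1 encodes a microtubule-bound E3 ubiquitin ligase and lies on the X chromosome from 169685199 to 170005736, where in laboratory mice the gene spans the border of the pseudoautosomal region. It was at 7.91 and 5.55 CPM after TCS, against 20.3 and 15.6 CPM after vehicle. The libraries of each treatment differed from each other, but the groups did not overlap. Its log2 fold change was −1.42 (SE 0.21, edgeR adjusted p = 0.0224). The call ended in 5 of the 8 fits without 1 library, at adjusted p values of 0.187 and 0.0545 without vehicle replicates 1 and 2, 0.141 without TCS replicate 2, and 0.0692 and 0.0693 without vehicle replicates 1 and 2 of hUGT1/Atf4ΔHep mice. With the Y-linked term it was −1.18 (adjusted p = 0.479).

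Serpina1e encodes a form of α1-antitrypsin, the plasma inhibitor of neutrophil elastase, and lies on chromosome 12 from 103946931 to 103958975. It was at 57.8 and 44.5 CPM after TCS, against 84.1 and 93.3 CPM after vehicle, and its log2 fold change was −0.79 (SE 0.13, edgeR adjusted p = 0.0445). The Serpina1 genes are near-identical copies that may share reads, so the assignment to this copy is uncertain, and Serpina1e is also a gene of male-biased expression in adult mouse liver. Of that list of male-biased genes 12 of 21 were tested, with 9 above 0, a median of 0.20 and 1 call.

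Slc22a7 encodes OAT2, an organic anion transporter of the sinusoidal hepatocyte membrane, and lies on chromosome 17 from 46432183 to 46438457. It was at 82.1 and 73.4 CPM after TCS, against 109 and 131 CPM after vehicle. The log2 fold change was −0.63 (SE 0.11, edgeR adjusted p = 0.0462). It was the 1 member called among 22 uptake transporters tested, whose median was −0.03 with 11 above 0.

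Fads1 encodes the delta-5 desaturase, which makes arachidonic and eicosapentaenoic acid, and lies on chromosome 19 from 10182888 to 10196877. It was at 372 and 338 CPM after TCS, against 464 and 462 CPM after vehicle. The log2 fold change was −0.38 (SE 0.06, edgeR adjusted p = 0.0465). For Serpina1e, Slc22a7 and Fads1 the fit without TCS replicate 1 alone kept the call among the 8 fits that left out 1 library, and the adjusted p without another library reached 0.276 for Serpina1e (without vehicle replicate 2), 0.292 for Slc22a7 (without TCS replicate 2) and 0.279 for Fads1 (without vehicle replicate 1). With the Y-linked term their log2 fold changes were −0.65, −0.76 and −0.39 (adjusted p = 0.641, 0.319 and 0.491).

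**Figure D2:**
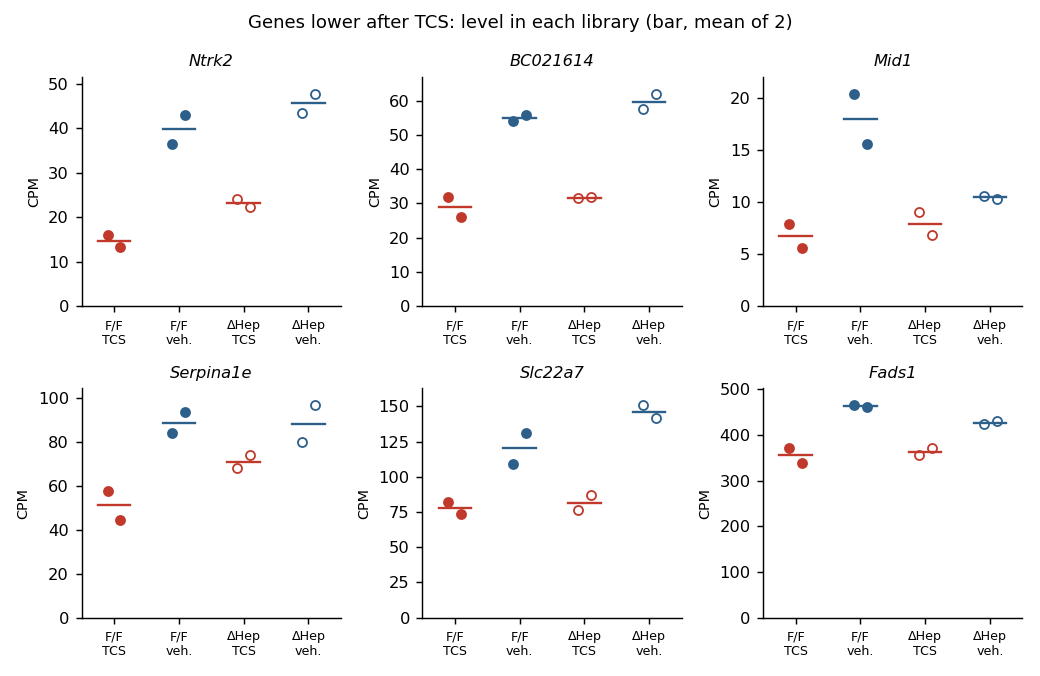
Level in CPM of the 6 genes that fell, in each of the 8 libraries, with TCS in red and vehicle in blue, filled for hUGT1/Atf4F/F and open for hUGT1/Atf4ΔHep, and a bar at the mean of 2 libraries. Both TCS libraries lie below both vehicle libraries in each genotype for all 6 genes, as they do for 19% of all genes tested in hUGT1/Atf4F/F and 21.5% in hUGT1/Atf4ΔHep libraries, and the vehicle level of Mid1 is 20.3 and 15.6 CPM in hUGT1/Atf4F/F and 10.6 and 10.3 CPM in hUGT1/Atf4ΔHep libraries.

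The hUGT1/Atf4ΔHep libraries share no control with this comparison and measured the same treatment, with 1 high and 1 low Y-linked sum in each group. All 6 genes were lower there with no overlap between TCS and vehicle libraries, where 21.5% of all genes were, and 3 of the 6 fell in the same test, where 8 genes of all tested (0.0587%) did. Ntrk2 was at 24.1 and 22.4 CPM after TCS, against 43.5 and 47.7 CPM after vehicle (−0.98, SE 0.12, adjusted p = 0.00770). Likewise BC021614 (−0.91, SE 0.10, adjusted p = 0.00454) and Slc22a7 (−0.83, SE 0.11, adjusted p = 0.010) fell. The values of Mid1 (−0.43, adjusted p = 0.498), Serpina1e (−0.31, adjusted p = 0.416) and Fads1 (−0.23, adjusted p = 0.209) did not pass. The interaction contrast of edgeR, which tests the difference between the genotypes, passed for 0 genes, the smallest Benjamini-Hochberg adjusted p being 0.9999. At an unadjusted p under 0.05 the contrast held 282 genes (2.07%), among them 3 of the 6, namely Mid1 (a difference of −0.99 on the log2 scale), Ntrk2 (−0.46) and Serpina1e (−0.48). The 6 were chosen by their hUGT1/Atf4F/F values, which are part of this contrast. Their share can therefore not be compared with that of all genes.

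Not called were 12 further genes named by the smallest unadjusted p among those lower in both TCS libraries than in both vehicle libraries, with edgeR adjusted p of 0.0595 (Rdh5) to 0.150 (Smek1). Rdh5, a retinol dehydrogenase, was at 30.1 and 24.7 CPM after TCS, against 41.3 and 44.0 CPM after vehicle (−0.64, edgeR adjusted p = 0.0595). Efhd2, a calcium-binding adaptor protein, had a log2 fold change of −0.44 at the same adjusted p. Apoa4, an apolipoprotein of triglyceride-rich particles, was at 21.4 and 21.6 CPM after TCS, against 58.9 and 33.9 CPM after vehicle (−1.11, edgeR adjusted p = 0.0886). The size for Apoa4 rests in part on vehicle replicate 1, without which it was −0.66. Of the other genes of this rule, 3 encode secreted plasma proteins of the hepatocyte, namely hemopexin (Hpx), clotting factor XI (F11) and complement C1s (C1s1), and a further one, Serpina11, encodes a serpin (−0.43, edgeR adjusted p = 0.138). Hpx was at 3085 and 2991 CPM after TCS, against 3626 and 3833 CPM after vehicle (−0.30, edgeR adjusted p = 0.0887). In hUGT1/Atf4ΔHep livers Hpx fell (−0.41, adjusted p = 0.0165), as did H2-Q1, a class I histocompatibility gene of a family whose members may share reads (−0.79 with adjusted p = 0.0933 in hUGT1/Atf4F/F, −1.09 with adjusted p = 0.0206 in hUGT1/Atf4ΔHep livers). The remaining 4 were Myo5c, a myosin motor (−0.78), Col4a3, a basement membrane collagen chain (−0.93, edgeR adjusted p = 0.0904 for both), Hs6st1, a heparan sulfate sulfotransferase (−0.29, adjusted p = 0.148), and Smek1, a phosphatase subunit (−0.29, adjusted p = 0.150). DESeq2, run as an alternative on the same libraries, called 25 lower genes, and those included 5 of the 6 falls and also Rdh5, Efhd2, Apoa4, Hpx, H2-Q1, F11, C1s1, Serpina11 and Hs6st1. The 25 also held the Y-linked gene Kdm5d (−1.11, DESeq2 adjusted p = 0.00158), whose edgeR value in hUGT1/Atf4ΔHep livers was 0.15.

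Most genes of complement and coagulation had values below 0. Of 34 such genes, all tested, 4 had a log2 fold change above 0 and 0 passed the test, and the median was −0.12, beside 49.2% above 0 and a median of −0.0036 for all genes. At an unadjusted p under 0.05, 11 of the 34 were lower and 0 higher, where 4% of all genes were lower. The summed level of the 34 genes was 39868 and 40711 CPM after TCS, against 40591 and 41656 CPM after vehicle, which overlap. F11 was at 98.0 and 82.5 CPM after TCS, against 126 and 131 CPM after vehicle (−0.51, SE 0.10, edgeR adjusted p = 0.0982), and its value with the Y-linked term was −0.27 (adjusted p = 0.790). C1s1 was at 411 and 422 CPM after TCS, against 502 and 521 CPM after vehicle (−0.30, SE 0.06, edgeR adjusted p = 0.111). C8g, a chain of the membrane attack complex, was at 156 and 156 CPM after TCS, against 186 and 179 CPM after vehicle (−0.23, edgeR adjusted p = 0.206). F10, clotting factor X, had a log2 fold change of −0.20 (edgeR adjusted p = 0.315). The median of the list was −0.15 in hUGT1/Atf4ΔHep livers and −0.07 with the Y-linked term. Of 25 acute phase genes, 12 were above 0 (median −0.02, 0 called), with 3 higher and 6 lower at an unadjusted p under 0.05, and of the 9 hepatocyte markers 4 were lower and 0 higher at that level. In that list Hpx was lower, as given above, while Il1rn, the interleukin-1 receptor antagonist, was at 7.61 and 8.41 CPM after TCS, against 3.04 and 4.66 CPM after vehicle (1.07, edgeR adjusted p = 0.141).

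**Figure D3:**
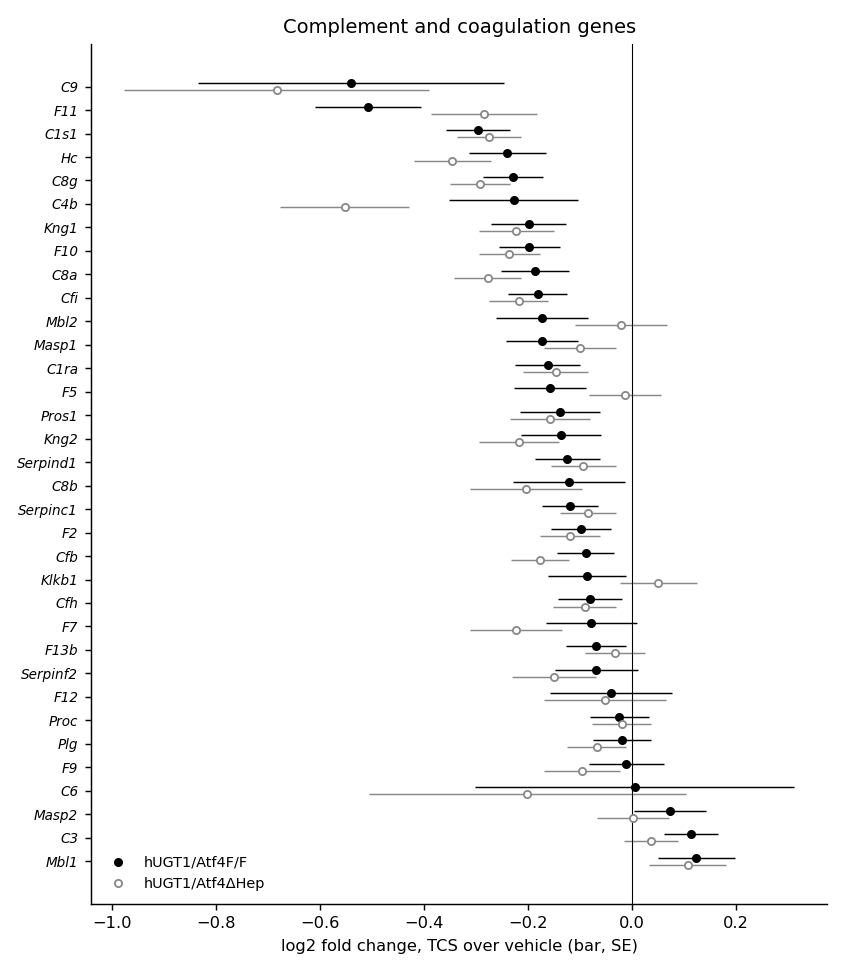
Log2 fold change of TCS over vehicle (horizontal axis, bar of 1 SE) of the 34 complement and coagulation genes, ordered by their value in hUGT1/Atf4F/F (filled) and with the value in hUGT1/Atf4ΔHep (open) beside it. In hUGT1/Atf4F/F, 4 of the 34 lie above 0, and none of the 34 passed the test over all genes.

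Transport and storage of lipid outside fatty acid oxidation gave mixed values. Of 25 lipoprotein genes, 8 were above 0 (median −0.05) and 0 were called. Apoa1, the main protein of high-density lipoprotein, was at 9932 and 9046 CPM after TCS, against 11218 and 12106 CPM after vehicle (−0.30, edgeR adjusted p = 0.355), and Apob had a log2 fold change of −0.16 (edgeR adjusted p = 0.424). Lipc, hepatic lipase, was at 230 and 227 CPM after TCS, against 192 and 197 CPM after vehicle (0.23, edgeR adjusted p = 0.272). Of 26 genes of fatty acid synthesis, elongation and desaturation, 2 rose, 1 fell and 15 were above 0 (median 0.05). Among the desaturases named here Scd1 rose and Fads1 fell, and both calls ended with the Y-linked term. Scd1, which makes monounsaturated fatty acids, was at 143 and 146 CPM after TCS, against 90 and 72.7 CPM after vehicle (0.83, SE 0.12, edgeR adjusted p = 0.0216). Its value was 0.69 to 0.99 in the fits that left out 1 library, and 0.68 with the Y-linked term (adjusted p = 0.467). The call of Scd1 also ended in the fit of the 4 hUGT1/Atf4F/F libraries alone. Fads2, the delta-6 desaturase of the same pathway as Fads1, was at 508 and 506 CPM after TCS, against 630 and 577 CPM after vehicle (−0.25, edgeR adjusted p = 0.211). In hUGT1/Atf4ΔHep livers the value of Fads2 was −0.0062. Me1, malic enzyme, is also in the NRF2 list and rose by 0.86 (edgeR adjusted p = 0.0310). Of the 8 fits that left out 1 library only that without TCS replicate 1 kept the call of Me1, the adjusted p reaching 0.226 without vehicle replicate 2, and with the Y-linked term its value was 0.51 (adjusted p = 0.508). Of 22 genes of triglyceride and phospholipid synthesis, 14 were above 0 (median 0.03) and 0 were called. Mogat1, a monoacylglycerol acyltransferase, was at 3.38 and 4.40 CPM after TCS, against 0.862 and 0.985 CPM after vehicle (2.07, SE 0.43, edgeR adjusted p = 0.111). Cholesterol synthesis was close to the whole table, with 14 of 25 genes above 0, a median of 0.0095 and 0 called (median −0.20 with the Y-linked term).

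Nitrogen, sugar and growth genes gave few calls. Of 11 genes of the urea cycle and glutamine metabolism, 4 were above 0 (median −0.08), and 1 rose. That gene was Oat, ornithine aminotransferase, at 367 and 454 CPM after TCS, against 252 and 252 CPM after vehicle (0.70, SE 0.10, edgeR adjusted p = 0.0154). With the Y-linked term the value of Oat was 0.64 (adjusted p = 0.400), and its call also ended in the fit of the 4 hUGT1/Atf4F/F libraries alone. Gls2, liver glutaminase, was at 353 and 347 CPM after TCS, against 412 and 424 CPM after vehicle (−0.26, edgeR adjusted p = 0.229), and Asl, argininosuccinate lyase, had a log2 fold change of −0.23 (edgeR adjusted p = 0.455). Ldha, lactate dehydrogenase A, was at 811 and 755 CPM after TCS, against 942 and 932 CPM after vehicle (−0.26, edgeR adjusted p = 0.202), within a list of 29 glycolytic and gluconeogenic genes of which 9 were above 0 (median −0.03) and 0 were called. Apart from Ntrk2, the growth hormone, IGF and growth factor receptor list had no call, with 6 of 26 above 0 and a median of −0.09. Igfbp3, an IGF-binding protein, was at 76.5 and 67.6 CPM after TCS, against 87.6 and 105 CPM after vehicle (−0.41, edgeR adjusted p = 0.272), and Ghr, the growth hormone receptor, had a log2 fold change of −0.19 (edgeR adjusted p = 0.438). Periportal genes had 4 of 18 and pericentral genes 11 of 20 above 0 (medians −0.15 and 0.05), with Oat as the 1 call among them. Fetal liver genes, which are shut down after birth, had 6 of 19 above 0 (median −0.25, 0 called) and large differences within a treatment. Igf2, a fetal growth factor, was at 799 and 228 CPM after TCS, against 1057 and 1881 CPM after vehicle (−1.52, SE 0.53, edgeR adjusted p = 0.398). H19, the imprinted noncoding RNA beside Igf2, was at 4176 and 1726 CPM after TCS, against 5217 and 8319 CPM after vehicle (−1.20, SE 0.42, edgeR adjusted p = 0.401). In both genes TCS replicate 2 was the lowest and vehicle replicate 2 the highest library. Cell cycle genes had 8 of 34 above 0 (median −0.11, 0 called, 0 at an unadjusted p under 0.05 in either direction), and the median with the Y-linked term was 0.21.

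**Figure D4:**
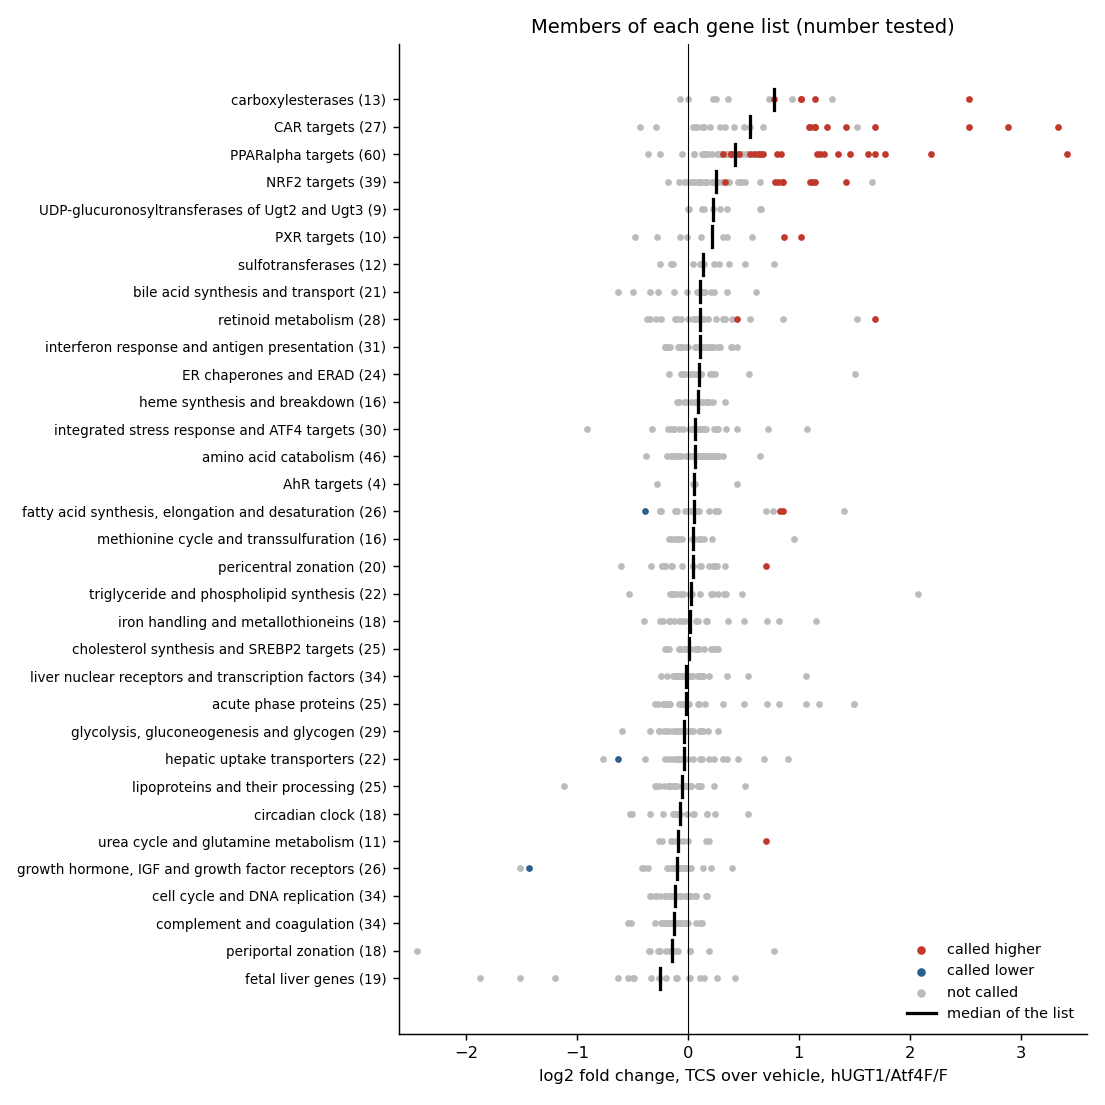
Log2 fold change of TCS over vehicle in hUGT1/Atf4F/F livers (horizontal axis) for the members of 33 gene lists, ordered by median (black bar), with genes called higher in red, called lower in blue and not called in grey. Carboxylesterases and the CAR and PPARα targets have the highest medians drawn, 0.78, 0.56 and 0.42 (0.39, 0.56 and 0.29 with the Y-linked term), and fetal liver genes the lowest, −0.25 (−0.15), while the cell type marker and sex-biased lists are not drawn.

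Of the 70 genes that rose, 39 are in a target list of PPARα, CAR, PXR or NRF2 and 31 are in none, 2 of the 31 being predicted genes. The lists do not hold every known target, and some of the 31, such as Ephx2 and Hsd17b11, have been described as responsive to PPARα ligands. The 31 had a median log2 fold change of 0.66 with 7 past 2-fold, and the 39 a median of 1.10 with 22 past 2-fold. The summed level of the 31 genes was 9936 and 10584 CPM after TCS, against 6755 and 6705 CPM after vehicle.

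The largest rises outside the lists were in genes not usually counted as liver metabolism. Adam11, a membrane protein of the metalloprotease-disintegrin family best known from neurons, was at 31.9 and 51.8 CPM after TCS, against 13 and 11.3 CPM after vehicle (1.78, SE 0.20, edgeR adjusted p = 0.00596). Atp8b5, a P4-type ATPase of the flippase family, was at 7.43 and 7.95 CPM after TCS, against 2.94 and 1.77 CPM after vehicle (1.68, SE 0.24, edgeR adjusted p = 0.0187). Ctse, the endosomal aspartic protease cathepsin E, was at 127 and 179 CPM after TCS, against 67.1 and 53.0 CPM after vehicle (1.35, SE 0.17, edgeR adjusted p = 0.00963). In all 3 genes both TCS libraries were above both vehicle libraries, as in 19.7% of all genes tested, with TCS replicate 2 the highest. The log2 fold change of Adam11 was 1.39 without TCS replicate 2 and 2.08 without TCS replicate 1, and with libraries left out singly its call was lost 2 times (adjusted p = 0.0629 and 0.0837 without vehicle replicates 1 and 2), that of Ctse in 1 (0.0950 without vehicle replicate 2) and that of Atp8b5 in 4 (0.0770 without vehicle replicate 2, 0.117 without TCS replicate 2, and 0.0596 and 0.0608 without TCS replicates 1 and 2 of hUGT1/Atf4ΔHep mice). In hUGT1/Atf4ΔHep livers Adam11 (1.14, adjusted p = 0.0484) and Ctse (1.51, adjusted p = 0.00574) rose, and Atp8b5 had a value of 0.66 (adjusted p = 0.304, interaction 1.02 with an unadjusted edgeR p of 0.0125). Neat1, the long noncoding RNA that scaffolds paraspeckles, was at 577 and 525 CPM after TCS, against 312 and 326 CPM after vehicle (0.79, SE 0.09, edgeR adjusted p = 0.00601). With the Y-linked term the calls of Adam11, Atp8b5, Ctse and Neat1 ended (adjusted p = 0.230, 0.276, 0.361 and 0.226).

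Gstt2, Gstt3, Mgst1 and Inmt, which encode conjugating enzymes, were among the rises outside the receptor lists. Gstt2 and Gstt3, theta-class glutathione transferases, lie near each other on chromosome 10, from 75831114 to 75837424 and from 75774115 to 75781414. Gstt2 was at 42.6 and 41.3 CPM after TCS, against 18.2 and 19.1 CPM after vehicle (1.17, SE 0.09, edgeR adjusted p = 0.000974). Gstt3 was at 58.2 and 83.0 CPM after TCS, against 34.9 and 27.6 CPM after vehicle (1.17, SE 0.17, edgeR adjusted p = 0.0230). The fold changes were alike, but the libraries of a treatment were close for Gstt2 and apart for Gstt3, whose call held only without TCS replicate 1 when libraries were left out singly (1.40, adjusted p = 0.00338) and had an adjusted p of 0.200 without vehicle replicate 2. Mgst1, a microsomal glutathione transferase, rose by 0.46 (edgeR adjusted p = 0.0175) and Inmt, an amine N-methyltransferase, by 0.63 (edgeR adjusted p = 0.0154). The 9 tested genes of the Ugt2 and Ugt3 families and their cofactor supply were all above 0 (median 0.22), with 5 at an unadjusted p under 0.05 and 0 called. Ugt3a1 was at 22.3 and 20.4 CPM after TCS, against 14.3 and 12.6 CPM after vehicle (0.66, edgeR adjusted p = 0.118), and Ugdh, which makes UDP-glucuronic acid, had a log2 fold change of 0.65 (edgeR adjusted p = 0.122). Sulfotransferases had 9 of 12 above 0 (median 0.13, 0 called).

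Among the lists that are not receptor target lists, the carboxylesterases, which hydrolyse drug esters and stored lipid, had the highest median of the lists drawn. Of 13 carboxylesterases tested, 12 were above 0, 5 rose and the median was 0.78, or 0.39 with the Y-linked term. Ces1f and Ces2a of these 5 are also in the CAR list. Ces1e, which was not among the genes labelled in the study's plot, was at 116 and 122 CPM after TCS, against 57.6 and 59.9 CPM after vehicle (1.02, SE 0.09, edgeR adjusted p = 0.00119). Ces1g was at 480 and 467 CPM after TCS, against 234 and 232 CPM after vehicle (1.02, SE 0.06, edgeR adjusted p = 0.000281). Ces1d, a triglyceride hydrolase, was at 954 and 997 CPM after TCS, against 563 and 574 CPM after vehicle (0.78, SE 0.06, edgeR adjusted p = 0.00107). These 3 genes lie within chromosome 8 from 93166068 (Ces1d) to 93337308 (Ces1g), and as close copies they may share reads. Their calls stood in every fit without 1 library. In hUGT1/Atf4ΔHep livers the rise of Ces1g was 1.3 (adjusted p = 6.12e-05, interaction −0.27 with an unadjusted edgeR p of 0.00795). Abhd6, a monoacylglycerol lipase (0.73, edgeR adjusted p = 0.0189), and Pla2g6, a calcium-independent phospholipase A2 (0.54, edgeR adjusted p = 0.0187), also rose. The calls of both ended with the Y-linked term, as did that of Ces1e (0.97, adjusted p = 0.0593). Those of Ces1g and Ces1d stood with it.

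**Figure D5:**
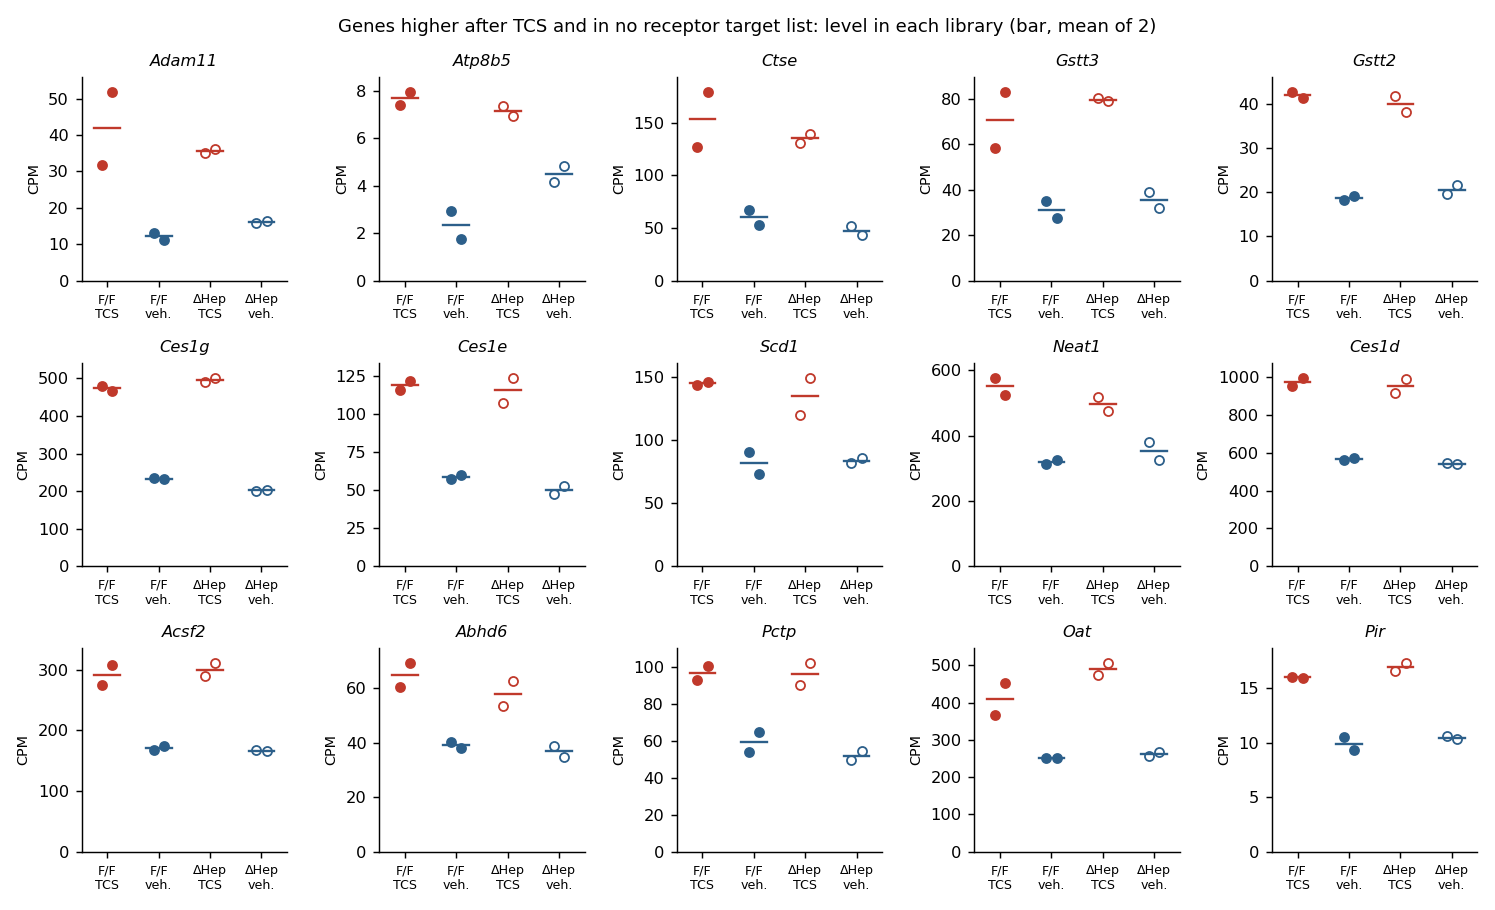
Level in CPM, in each of the 8 libraries, of the 15 named genes with the largest log2 fold changes among those that rose outside the receptor lists, with TCS in red, vehicle in blue, filled for hUGT1/Atf4F/F, open for hUGT1/Atf4ΔHep, and a bar at the mean of 2 libraries. In each of the 15 genes both TCS libraries lie above both vehicle libraries in both genotypes. The same holds for 19.7% of all genes tested in hUGT1/Atf4F/F and 21.5% in hUGT1/Atf4ΔHep libraries, and the 15 were chosen from genes called in hUGT1/Atf4F/F.

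Several other rises outside the lists were in genes of lipid and acyl-CoA enzymes. Acsf2, an acyl-CoA synthetase of mitochondria, was at 275 and 308 CPM after TCS, against 169 and 175 CPM after vehicle (0.76, SE 0.07, edgeR adjusted p = 0.00225). Pctp, the phosphatidylcholine transfer protein, was at 93.1 and 100.4 CPM after TCS, against 53.8 and 64.8 CPM after vehicle (0.71, SE 0.10, edgeR adjusted p = 0.0224). Hacl1, which cleaves 2-hydroxy and branched acyl-CoA in peroxisomes, rose by 0.52, and Acss3, a mitochondrial short-chain acyl-CoA synthetase, by 0.56. Hsd17b11, a dehydrogenase of lipid droplets, rose by 0.62, Ephx2, the soluble epoxide hydrolase, by 0.66, and Dhrs4, a peroxisomal carbonyl and retinal reductase, by 0.44. The edgeR adjusted p of these 5 genes was 0.00783 for Hsd17b11 to 0.0310 for Hacl1. The mitochondrial genes Adck3, which serves coenzyme Q synthesis, and Vwa8, which encodes an ATPase, rose by 0.35 and 0.43 (edgeR adjusted p = 0.0319 and 0.0189). Other rises were those of Creg1, a lysosomal glycoprotein (0.66), Entpd5, a nucleotide diphosphatase of the endoplasmic reticulum (0.61), Pgrmc1, a heme-binding partner of P450 enzymes (0.33), and Pir (0.69). With the Y-linked term the calls of all these genes, from Acsf2 (adjusted p = 0.132) to Pir, ended. All but that of Acsf2 also ended in the fit of the 4 hUGT1/Atf4F/F libraries alone.

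Pir encodes pirin, an iron-dependent nuclear protein. It was at 16.1 and 16 CPM after TCS, against 10.5 and 9.32 CPM after vehicle (0.69, SE 0.11, edgeR adjusted p = 0.0282). The call was lost in each of the 8 fits that left out 1 library, the adjusted p reaching 0.171 without vehicle replicate 2, and the value with the Y-linked term was 0.64 (adjusted p = 0.509). Its start region shares a stretch with those of Prdx1 and Me1, a peroxiredoxin and malic enzyme of the NRF2 list that also rose (log2 fold changes of 0.34 and 0.86, edgeR adjusted p = 0.0450 and 0.0310). The antioxidant response element that NRF2 binds has the core TGACNNNGC, and in these 3 genes the core reads TGACTCAGC on 1 of the strands. The 3 windows of 30 bases, from RefSeq on GRCm38.p6 and shown for that shared core, have the match in capitals and run 5′ to 3′ on the strand of the gene.
Pir, chrX:164269207-164269236, plus strand: gcatagagagGCTGAGTCActcccccaaac
Prdx1, chr4:116685456-116685485, plus strand: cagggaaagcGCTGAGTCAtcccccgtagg
Me1, chr9:86695901-86695930, minus strand: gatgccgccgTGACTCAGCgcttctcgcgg
The matches start 214, 133 and 6 bases before the annotated starts of Pir, Prdx1 and Me1. Promoters, taken from 250 bases before to 50 bases after each RefSeq start, were matched for 51 of the 70 genes that rose and 3 of the 6 that fell. The exact TGACTCAGC, on either strand, was present in 3 of the 51 and in 136 of 27025 genes with a promoter (0.503%), and in 57 of the 10380 of these that were tested (0.549%). The open form TGACNNNGC was present in 10 of the 51 (19.6%) and in 1763 of the 10380 tested genes (17%). The hexamer of nuclear receptor elements, AGGTCA, was present in 9 of the 51 (17.6%) and in 1605 of the 10380 (15.5%), and the spaced pairs AGGTCANAGGTCA, named DR1, and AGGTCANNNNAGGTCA, named DR4, in 0 of the 51. Among the 3 promoters of genes that fell, that of Mid1 held both TGACNNNGC and AGGTCA, and those of Ntrk2 and Serpina1e neither. These matches describe the letters of the windows and no binding was measured.

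Retinoid metabolism had 2 rises among 28 genes, with 20 above 0 and a median of 0.11. Retsat, retinol saturase, was at 226 and 364 CPM after TCS, against 96.8 and 86.1 CPM after vehicle (1.69, SE 0.20, edgeR adjusted p = 0.00775), and Dhrs4 was the other. Retsat is also in the PPARα list. The calls of both genes ended with the Y-linked term and in the fit of the 4 hUGT1/Atf4F/F libraries alone. Members of the list that did not pass went both ways. Aldh1a1, which makes retinoic acid, was at 166 and 292 CPM after TCS, against 100.2 and 59.3 CPM after vehicle (1.52, SE 0.32, edgeR adjusted p = 0.122). Rdh9, a retinol dehydrogenase, was at 260 and 309 CPM after TCS, against 347 and 372 CPM after vehicle (−0.34, edgeR adjusted p = 0.272). Amino acid catabolism had 33 of 46 genes above 0 (median 0.06, 0 called), led by Csad, a taurine synthesis enzyme, at 81.4 and 72.6 CPM after TCS, against 43.9 and 54.7 CPM after vehicle (0.65, edgeR adjusted p = 0.0943). Metallothioneins and ferritin stood close to the threshold. Mt1 was at 295 and 276 CPM after TCS, against 188 and 160 CPM after vehicle (0.71, edgeR adjusted p = 0.0814), Mt2 had a log2 fold change of 0.82 (edgeR adjusted p = 0.122) and Ftl1, the ferritin light chain, one of 0.36 (edgeR adjusted p = 0.0866).

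At the level of RNA, the stress response that ATF4 controls gave no call in these Atf4-intact livers. The study reported higher ATF4 and CHOP protein on Western blots of liver from neonatal hUGT1 mice given the same dose, and protein was not measured here. Of 30 genes of the integrated stress response, 22 were above 0 with a median of 0.07. Of 24 chaperone and degradation genes of the endoplasmic reticulum, 17 were above 0 with a median of 0.10. In either list 0 passed, with 4 and 2 genes higher at an unadjusted edgeR p under 0.05, where 5.73% of all genes were. Atf4 itself had a log2 fold change of −0.05 (SE 0.07, edgeR adjusted p = 0.887, 95% interval −0.20 to 0.11). Gdf15, a stress-induced hormone, was at 5.31 and 6.12 CPM after TCS, against 2.69 and 2.76 CPM after vehicle (1.07, SE 0.21, edgeR adjusted p = 0.0933), and rose in hUGT1/Atf4ΔHep livers (1.18, adjusted p = 0.0443). Vldlr, the very-low-density lipoprotein receptor, was at 30.2 and 27.6 CPM after TCS, against 20.0 and 22.6 CPM after vehicle (0.44, edgeR adjusted p = 0.202).

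For scale, the receptor lists held 39 of the 70 genes that rose, but their members were chosen with earlier results of these data known. Of all genes tested 0.513% rose and 49.2% were above 0. Of 60 PPARα targets tested 21 rose and 57 were above 0 (median 0.42), of 27 CAR targets 10 rose and 24 were above 0 (median 0.56), of 39 NRF2 targets 9 rose and 35 were above 0 (median 0.25), of 10 PXR targets 2 rose and 6 were above 0 (median 0.22), and of 4 AhR targets 0 rose and 3 were above 0 (median 0.06). None of the members fell. Cyp4a10, a fatty acid hydroxylase, was at 1478 and 2156 CPM after TCS, against 459 and 339 CPM after vehicle. Cyp2b10, the CAR-responsive P450, was at 83.9 and 122 CPM after TCS, against 12.9 and 15.1 CPM after vehicle, and Gstm3, a mu-class glutathione transferase, at 46.0 and 49.0 CPM after TCS, against 22.9 and 19.9 CPM after vehicle. Members of the Cyp2c, Cyp4a and Gstm families are close copies and may share reads.

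In the hUGT1/Atf4ΔHep livers all 70 genes that rose were higher with libraries that did not overlap, as were 21.5% of all genes, and 63 of the 70 rose in the same test, where 84 of all genes (0.616%) did. Of the 31 genes outside the receptor lists, 27 rose there, and those that did not pass were Neat1 (0.49, adjusted p = 0.0578), Atp8b5, Adck3 (0.27, adjusted p = 0.0942) and Entpd5 (0.56, adjusted p = 0.0626). Both comparisons were made in 1 fit, which shared its estimate of the spread. With the Y-linked term, whose slope was estimated mainly from the hUGT1/Atf4ΔHep libraries, all 70 rises and 6 falls kept their sign in hUGT1/Atf4F/F livers, 16 of the 70 and 1 of the 6 passed the test, and among the 31 genes outside the lists these were Ces1g, Gstt2, Ces1d and Inmt. The Y-linked term itself was past an unadjusted edgeR p of 0.05 for 11 of the 70 and 0 of the 6, where 5.18% of all genes were, and passed after adjustment for 2 of all genes (0.0147%) and 0 of the 76. With this term the medians of 7 of the 33 lists drawn changed sign.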

How the data were processed

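Each library was made from pooled liver RNA of 2 mice with a stranded kit. The values used are the raw counts per gene that the authors deposited, with no normalization. Reads were demultiplexed and aligned with tools that the submitters' processing notes list as bcl2fastq 2.20 and STAR 2.7.9a, beside the build mm10. For the counter, annotation and strand setting, nothing is given in the sources used here. A deposited table of counts divided by 1 size factor per library was not used, nor were 3 tables of the authors' own comparisons, which hold fold changes, standard errors and p-values.

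Genes were kept by filterByExpr of edgeR 4.0.16 (minimum count 10, total 15), scaled by TMM and fitted with 1 mean per group over all 8 libraries (4 residual degrees of freedom). Contrasts were tested by the quasi-likelihood F test (glmQLFTest), with p-values adjusted by the Benjamini-Hochberg method over the 13633 genes tested and a threshold of 0.05. SEs were obtained from F and the log2 fold change (absolute value over √F). R 4.3.3, limma 3.58.1, DESeq2 1.42.0, Python 3.11.15, numpy 2.4.6 and matplotlib 3.10.9 were used, and the scripts were tested on simulated data. Gene positions are from GENCODE M21 (GRCm38) and promoters from RefSeq (GRCm38.p6).

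Gene lists and members were chosen with earlier results of these data known. Genes were named if they fell, if they rose outside the receptor lists (15 by log2 fold change in full), if they had 1 of the 12 smallest p-values among non-overlapping lower genes not called, or 1 of the 4 smallest in a list described. A gene that met this rule is not reported here. Alternatives were RLE factors, no filter, the 4 libraries alone, a threshold of 0.01, DESeq2, a replicate block, the Y-linked sum of each library as a term (sex makeup) and leaving out each library. DESeq2 on the 4 libraries and a crossed block were chosen after seeing the data. Libraries of a group differed by more than sampling noise (chi-square per gene of 16.8 for TCS and 10.4 for vehicle), so none was counted as a repeat.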

Additional observations from a re-analysis of the deposited data

How the results depend on the processing

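RLE factors gave the same counts, 70 genes higher and 6 lower. The counts of higher and lower genes moved to 33 and 2 at an adjusted p under 0.01, to 123 and 16 with no filter, to 31 and 2 with the 4 hUGT1/Atf4F/F libraries alone, and to 142 and 25 with DESeq2 (109 and 21 on those 4 libraries, chosen after seeing the data). The cause of these shifts was not tested. Leaving out 1 library gave 27 to 148 higher and 2 to 17 lower genes. With the Y-linked term for sex makeup 16 genes were higher and 4 lower, 1 of the 4 being among the 6 falls. The 3 others, Krt13, Akp3 and Alpi, had fitted log2 values of −46.5, −149 and −114, which cannot be read as sizes. DESeq2 gave no adjusted p for Mid1. Of 1462 values of 105 named genes under the alternatives, 1162 kept their direction and side of the threshold, 238 lost the call, 61 gained one and 1 changed sign, Atf4, at 0.0093 with the Y-linked term for sex makeup. Of the 29 named rises outside the receptor lists, 5 (Ces1g, Gstt2, Ces1d, Ces1e and Acsf2) stayed called without each library in turn while Pir, Adck3 and Pgrmc1 lost the call in all 8 such fits. With 2 pools a group, genes of low count had wide intervals.

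With the replicate block the counts were 59 higher and 5 lower, 57 and 3 of them shared with the fit without it, and the calls of Serpina1e, Slc22a7 (adjusted p = 0.0957 each) and Fads1 (0.10) ended. The labels do not tie the numbers to a shared litter or day, and deviations of same-numbered libraries correlated across genes at −0.343 in hUGT1/Atf4F/F and −0.189 in hUGT1/Atf4ΔHep, so the numbers were not taken as pairs. A crossed replicate block, added after seeing the data, gave 174 higher and 40 lower genes.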
